A study of Rattus norvegicus with 10 samples.

Results

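The genes described here are 6 that carry out or restrain the digestive secretion of the rat stomach: pepsinogen C (Pgc), the catalytic subunit of the gastric proton pump (Atp4a), the potassium channel Kcnq1, carbonic anhydrase 2 (Car2), the water channel Aqp4 and the hormone somatostatin (Sst). They were taken by position for Pgc and by Ensembl identifier for the others, each on condition that the listed chromosome fitted, and all 6 were found among 32623 listed genes. Gastric mucosal RNA of Sprague Dawley rats made up 10 libraries, 2 in each of 5 groups, labelled as epithelial cells although the protocol describes mucosal tissue. The groups were rats given diclofenac by mouth at 75 mg/kg, aspirin by mouth at 400 mg/kg, an intraperitoneal dose of honokiol (40 mg/kg) followed after 30 min by oral indomethacin, indomethacin by mouth at 48 mg/kg, and controls whose labels name no treatment. By the general protocol, tissue was taken 4 h after the NSAID. The time label reads 4 h for the diclofenac, aspirin and indomethacin groups and 0.5 h for the honokiol group. That 0.5 h equals the lead of honokiol before indomethacin, but no label says that this is what it records, and these libraries may have been taken at another time than the rest, which bears on every comparison with them. Age, sex and vehicle of the animals are not given in the labels, nor is whether the 2 libraries of a group stem from different rats. Counts on the Y chromosome were 3582 and 1 in the controls and 4438 and 2 with indomethacin, as from different animals. For the other groups this stays unknown, so p-values measure only the spread between these libraries.

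Acid and pepsin are made by neighbouring cells of the gastric gland. Chief cells release pepsinogens, which acid converts to the protease pepsin. Parietal cells secrete acid through the proton-potassium pump at their apical membrane, with carbonic anhydrase supplying protons from CO2 and water, potassium channels returning potassium to the lumen for the pump, and water channels in the basolateral membrane. Somatostatin from D cells restrains gastrin, histamine and acid. Non-steroidal anti-inflammatory drugs (NSAIDs) inhibit cyclooxygenases and so lower prostaglandins, which in the stomach hold acid back and maintain mucus and bicarbonate.

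To show the start regions of the genes that stand for the chief, the parietal and the D cell, the RefSeq sequences of Pgc, Atp4a and Sst are given from 250 bases before to 20 bases after the annotated start, 5′ to 3′ on the strand of the gene, in the build GRCr8. Capitals mark matches on either strand to a TATA box (TATAAA), a cAMP response element (TGACGTCA) or a GC box (GGGCGG).
Pgc, chr9:20763201-20763470, minus strand: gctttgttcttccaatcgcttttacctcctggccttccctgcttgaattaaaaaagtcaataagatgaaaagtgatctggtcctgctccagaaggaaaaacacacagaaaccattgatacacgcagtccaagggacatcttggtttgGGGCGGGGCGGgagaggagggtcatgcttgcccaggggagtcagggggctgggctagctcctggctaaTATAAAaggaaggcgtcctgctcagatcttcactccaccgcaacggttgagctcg
Atp4a, chr1:95088872-95089141, plus strand: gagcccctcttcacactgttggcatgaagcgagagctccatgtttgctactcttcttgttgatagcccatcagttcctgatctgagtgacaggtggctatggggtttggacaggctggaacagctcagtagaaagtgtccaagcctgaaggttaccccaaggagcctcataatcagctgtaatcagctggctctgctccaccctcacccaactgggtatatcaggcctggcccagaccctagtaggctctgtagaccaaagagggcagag
Sst, chr11:90461296-90461565, plus strand: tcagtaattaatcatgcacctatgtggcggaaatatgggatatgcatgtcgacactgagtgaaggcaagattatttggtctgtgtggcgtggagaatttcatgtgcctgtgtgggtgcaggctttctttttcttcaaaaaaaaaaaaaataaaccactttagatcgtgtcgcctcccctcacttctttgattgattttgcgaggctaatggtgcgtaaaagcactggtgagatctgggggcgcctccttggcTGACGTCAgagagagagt
Pgc held the TATA box with its first base at position -35 from the start and a pair of GC boxes at -103 and -98 that share a base. Sst held the cAMP response element with its first base at position 3, and Atp4a held none of the 3 motifs in this window. Of 33469 rat start regions of the same length, 13.4% held TATAAA, 31.7% GGGCGG and 1.76% TGACGTCA. These matches describe letters and were not tied to the counts.

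The files pair no identifier with a gene symbol, and 0 identifiers matched RefSeq's table for GRCr8, so the symbols are those under which the identifiers were chosen. Their chromosomes were those of the RefSeq genes of the same symbols for 6 of 6. The row of Pgc spanned 8219 bases, as RefSeq's Pgc does, and the other spans came to 13173 against 13156 bases for Atp4a, 337253 against 332940 for Kcnq1, 15310 against 15130 for Car2, 17052 against 16646 for Aqp4 and 1234 against 1278 for Sst. In the files' coordinates, whose build the sources used here do not give, Pgc (ENSRNOG00000014492) lies on chromosome 9 at 15266699 to 15274917 with 9 listed exons. Atp4a (ENSRNOG00000020985) lies on chromosome 1 at 89162639 to 89175811 with 22 exons, Kcnq1 (ENSRNOG00000020532) on chromosome 1 at 216293087 to 216630339 with 24, Car2 (ENSRNOG00000009629) on chromosome 2 at 88097720 to 88113029 with 7, Aqp4 (ENSRNOG00000016043) on chromosome 18 at 6765945 to 6782996 with 9, and Sst (ENSRNOG00000001837) on chromosome 11 at 80358211 to 80359444 with 2. No other listed gene overlaps any of the 6. Lists of further parietal, chief, endocrine and contaminating cell type genes were set by symbol and could not be applied to unnamed identifiers.

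Library totals ran from 23892226 to 44977459 counts. Counts on 7 features of the Y chromosome summed to 2733 to 4438 in 4 libraries (both with honokiol, and replicate 1 of indomethacin and of control) and to at most 47 in the other 6. Mitochondrial features took 21.4% and 21.1% of counts with diclofenac, 23.8% and 22.8% with aspirin, 31.5% and 35.4% with honokiol plus indomethacin, 32.4% and 21.7% with indomethacin, and 35.1% and 36.2% in control.

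Per kb of exon, the zymogen stood far above the other 5 genes. Levels are given as CPM, counts scaled to library size with the TMM factors of edgeR, and per kb of listed exons where genes are compared with each other. Over the 10 libraries Pgc ranged from 92272 to 181760 CPM per kb (median 132205), Atp4a from 324 to 590 (428), Car2 from 126 to 424 (229), Sst from 31.9 to 92.6 (52.1), Kcnq1 from 9.85 to 19.6 (14.8) and Aqp4 from 6.54 to 15.2 (9.2). In 9 of the 10 libraries the genes stood in this order. The exception was control replicate 1, where Car2 lay at 424 and Atp4a at 324 CPM per kb. Over the libraries the ranges of Atp4a and Car2 overlap, as do those of Kcnq1 and Aqp4, while Pgc and Sst overlap with no neighbour. The high levels of Pgc and Atp4a, which mark chief and parietal cells, show glandular mucosa in every library. Among 16346 tested genes Pgc ranked 2nd by mean CPM, Atp4a 31st, Car2 94th, Kcnq1 791st, Aqp4 931st and Sst 1584th. Depth was ample, since the smallest count of any of the 6 genes was 532, for Sst in aspirin replicate 1.

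**Figure D1:**
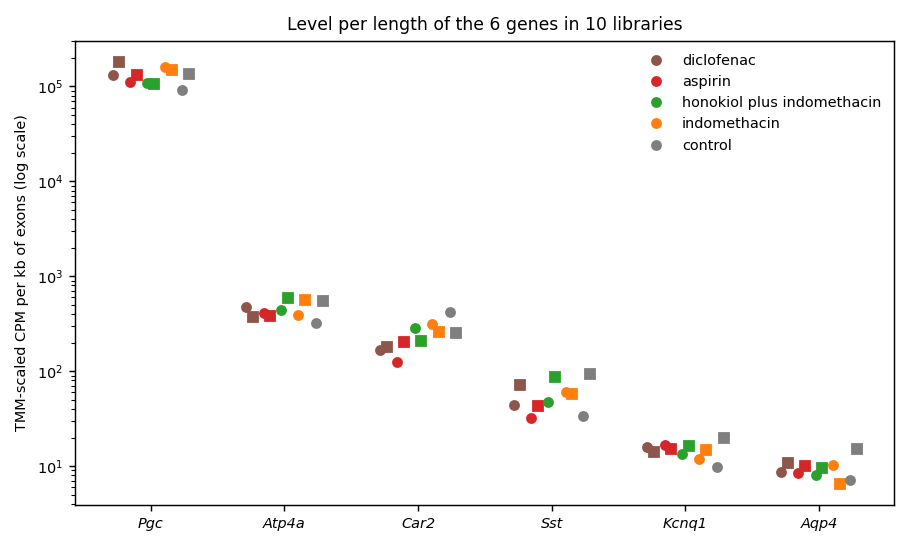
Level per length of each gene in each library, as TMM-scaled CPM per kb of listed exons on a log axis, coloured by group, with circles for replicate 1 and squares for replicate 2. Pgc lies at or above 92272 CPM per kb in all 10 libraries, and the Car2 point of control replicate 1 at 424 lies above its Atp4a point at 324.

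With the drugs, none of the 6 genes passed the test against control, and the 2 control libraries often lay as far apart as any others. All 6 passed the filter on low counts. The test was edgeR's quasi-likelihood F test across all 10 libraries, with p-values adjusted by Benjamini-Hochberg over 16346 genes and a call at an adjusted p under 0.05. Diclofenac called 0 of the 6, beside 7.87% of all genes tested. Aspirin called 0 of the 6, beside 17.8% of all genes. Indomethacin called 0 of the 6, beside 0.777% of all genes. Honokiol plus indomethacin called 0 of the 6 against control, beside 0% of all genes, of which 816 had an unadjusted p under 0.05 and DESeq2 called 14. At an unadjusted p under 0.05 stood 1 of the 6, Car2, with diclofenac and with aspirin, and none with indomethacin or honokiol plus indomethacin. Of all 16346 genes, 4401 stood there with diclofenac, 5989 with aspirin and 1614 with indomethacin. DESeq2 called Car2 with diclofenac and with aspirin and none of the 6 in the other comparisons with control. Of all genes it called 1792 of 15850 with diclofenac, 3154 of 16309 with aspirin and 376 of 16309 with indomethacin. The median log2 fold change of the 6 was -0.08 with diclofenac, -0.20 with aspirin, -0.13 with indomethacin and -0.04 with honokiol plus indomethacin. The median over all tested genes was -0.01, -0.00, -0.02 and -0.01 in the same order of drugs.

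**Figure D2:**
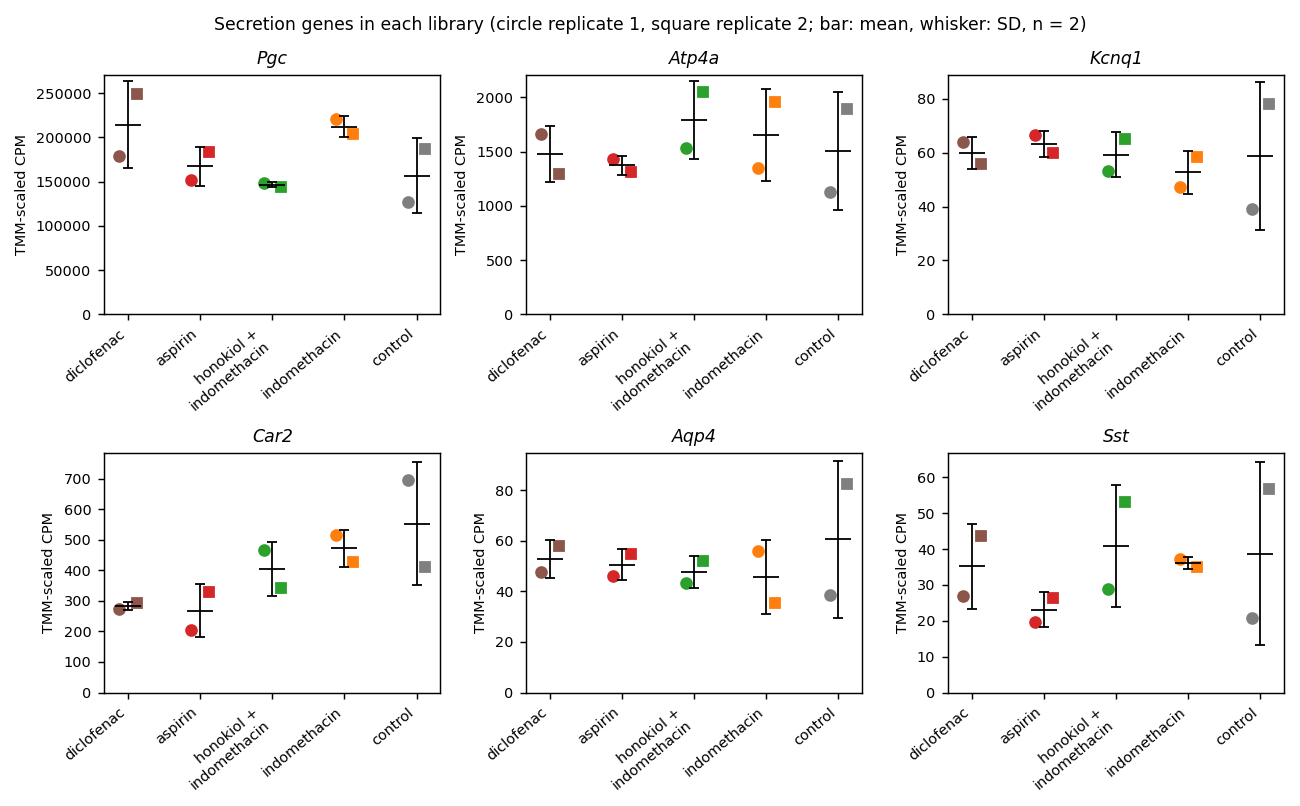
TMM-scaled CPM of each gene in each library, from 0 on a linear axis, with replicate 1 as circles, replicate 2 as squares, the group mean as a bar and the SD (n = 2) as a whisker. All 8 treated Kcnq1 points lie between the 2 control points at 39.3 and 78.3 CPM, and the 4 Car2 points of diclofenac and aspirin lie below both controls.

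Another view of the same values asks whether both libraries of a group lay on 1 side of both libraries of the other. Against control, this held with diclofenac for 1 of the 6 genes (Car2, below) where 55.4% of all tested genes lay apart, and with aspirin again for Car2 alone, where 60.6% did. With indomethacin it held for 1 of the 6 (Pgc, above), beside 38.2% of all genes, and with honokiol plus indomethacin for 0 of the 6, beside 37.7%. A single comparison of 2 against 2 libraries cannot give a two-sided exact permutation p below 0.333. Of the 8 treated libraries, those that lay between the 2 control values numbered 8 for Kcnq1, 7 for Aqp4, 7 for Sst, 6 for Atp4a, 5 for Pgc and 3 for Car2. The higher control library exceeded the lower by 1.48 times for Pgc, 1.69 times for Atp4a, 1.99 times for Kcnq1, 1.7 times for Car2, 2.14 times for Aqp4 and 2.74 times for Sst.

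Pgc, the zymogen, had 179347 and 249193 CPM with diclofenac, 151681 and 183159 with aspirin, 148651 and 144283 with honokiol plus indomethacin, 220504 and 203546 with indomethacin, and 126504 and 186668 in control, each pair as replicates 1 and 2. Both indomethacin libraries lay above both controls, and the other groups overlapped with control. Its share of all counts was highest in diclofenac replicate 2 at 25.06% (95% Clopper-Pearson interval 25.04 to 25.07) and lowest in control replicate 1 at 11.25% (11.24 to 11.26), intervals that cover counting error only. The log2 fold change was 0.45 ± 0.39 with diclofenac, 0.10 ± 0.39 with aspirin, 0.44 ± 0.39 with indomethacin and -0.10 ± 0.39 with honokiol plus indomethacin (SE, edgeR adjusted p = 0.49, 0.88, 0.78 and 0.96). The 95% interval of the diclofenac fold was 0.756 to 2.48, and that of the indomethacin fold 0.748 to 2.45.

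Atp4a, whose product exchanges protons for potassium at the cost of ATP, had 1658 and 1297 CPM with diclofenac, 1435 and 1309 with aspirin, 1536 and 2046 with honokiol plus indomethacin, 1350 and 1956 with indomethacin, and 1123 and 1893 in control. Every treated group overlapped with control, whose replicate 1 was the lowest of the 10 libraries. The log2 fold changes were -0.03 ± 0.35 with diclofenac, -0.14 ± 0.35 with aspirin, 0.13 ± 0.35 with indomethacin and 0.25 ± 0.35 with honokiol plus indomethacin (SE, edgeR adjusted p = 0.97, 0.80, 0.93 and 0.89). In a tissue sample, fewer parietal cells and less pump RNA per cell cannot be told apart.

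Kcnq1, the channel that returns potassium to the lumen for the pump, had 64 and 55.8 CPM with diclofenac, 66.6 and 59.9 with aspirin, 53.4 and 65.2 with honokiol plus indomethacin, 47.1 and 58.5 with indomethacin, and 39.3 and 78.3 in control. The 2 controls held the lowest and the highest value of all 10 libraries. Group means lay between 52.8 and 63.2 CPM, the narrowest span of the 6 genes at 1.2 times from lowest to highest. The log2 fold changes were 0.03 with diclofenac, 0.11 with aspirin, -0.15 with indomethacin and 0.01 with honokiol plus indomethacin, each ± 0.29 (SE, edgeR adjusted p = 0.96, 0.81, 0.90 and 0.99).

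Car2, which makes protons and bicarbonate from CO2 and is active in parietal and in surface mucous cells, had the log2 fold change farthest from 0 among the 6 genes with diclofenac and with aspirin, though not with indomethacin, where Pgc and Aqp4 lay farther. It had 274 and 293 CPM with diclofenac, 206 and 330 with aspirin, 466 and 340 with honokiol plus indomethacin, 515 and 428 with indomethacin, and 696 and 410 in control. The diclofenac and aspirin libraries lay below both controls and below both indomethacin libraries, and in the honokiol group replicate 2 lay below both controls and replicate 1 between them. Means were 284 ± 13.3 CPM with diclofenac, 268 ± 88 with aspirin, 403 ± 89 with honokiol plus indomethacin, 472 ± 61.4 with indomethacin and 553 ± 203 in control (SD, n = 2 each). The log2 fold change was -0.96 ± 0.34 with diclofenac and -1.04 ± 0.34 with aspirin (SE, edgeR adjusted p = 0.096 and 0.052). As folds of control these are 0.514 (95% interval 0.309 to 0.854) and 0.485 (0.291 to 0.808). With indomethacin the log2 fold change was -0.23 ± 0.33 and with honokiol plus indomethacin -0.45 ± 0.33 (SE, edgeR adjusted p = 0.87 and 0.83).

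The Car2 result sat near the threshold with aspirin and farther from it with diclofenac, and both moved with single libraries. Among all tested genes, its absolute log2 fold change stood at percentile 82.8 with diclofenac and 80.5 with aspirin. DESeq2 gave log2 fold changes of -0.95 with diclofenac and -1.03 with aspirin (DESeq2 adjusted p = 0.021 and 0.0067), and edgeR with no filter on low counts gave -0.93 and -1.02 (edgeR adjusted p = 0.039 and 0.014). Without control replicate 1 the edgeR values were -0.50 and -0.57 (adjusted p = 0.52 and 0.33), and without control replicate 2 they were -1.27 and -1.34 (adjusted p = 0.055 and 0.036). For aspirin the log2 fold change was -1.43 without aspirin replicate 2 and -0.74 without aspirin replicate 1 (edgeR adjusted p = 0.031 and 0.30). Reads on the Y chromosome, which only male animals carry, moved with these groups, since no diclofenac or aspirin library held them and 1 of 2 controls did. Drug and sex, which the labels do not give, thus cannot be fully told apart here. With a term for Y reads the log2 fold change was -0.66 ± 0.34 with diclofenac and -0.74 ± 0.34 with aspirin (SE, edgeR adjusted p = 0.33 and 0.19). Among the 6 libraries without Y reads, Car2 stood at 0.67 and 0.716 times the lone control with diclofenac and at 0.503 and 0.807 times with aspirin. The mitochondrial share moved with the same groups. With mitochondrial features left out the log2 fold changes were -0.95 with diclofenac and -1.02 with aspirin (edgeR adjusted p = 0.096 and 0.054). Leaving these features out bears on the scaling alone, and what the mitochondrial share reflects was not tested.

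**Figure D3:**
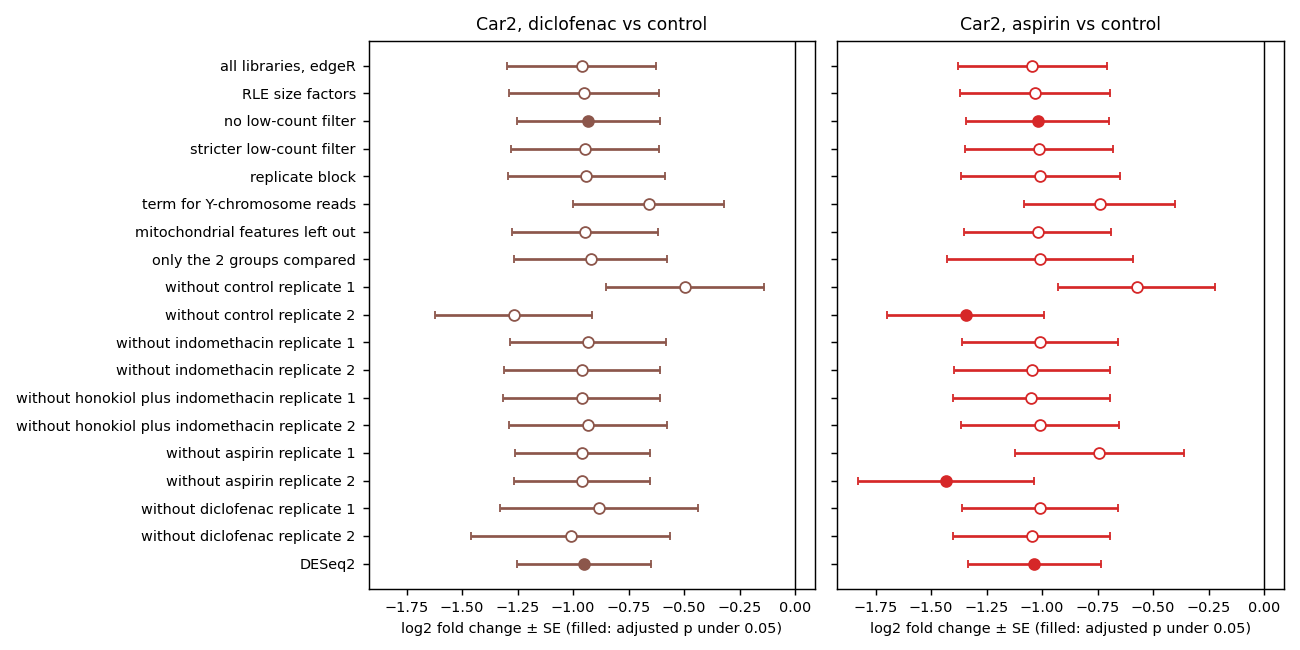
Log2 fold change of Car2 with its SE under each setting of the analysis, against control, for diclofenac on the left and aspirin on the right; filled points passed an adjusted p under 0.05. All points lie below 0, from -1.27 to -0.50 with diclofenac and from -1.43 to -0.57 with aspirin, and those nearest to 0 are without control replicate 1.

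Aqp4, a basolateral water channel of parietal cells, had 47.5 and 58.1 CPM with diclofenac, 46.2 and 54.9 with aspirin, 43.3 and 52.2 with honokiol plus indomethacin, 56 and 35.4 with indomethacin, and 38.5 and 82.5 in control. Indomethacin replicate 2 was the lowest of the 10 libraries and control replicate 2 the highest, so that every treated group overlapped with or lay between the controls. All 4 log2 fold changes were negative, at -0.20 with diclofenac, -0.26 with aspirin, -0.40 with indomethacin and -0.34 with honokiol plus indomethacin, each ± 0.33 (SE, edgeR adjusted p = 0.75, 0.60, 0.76 and 0.84). These comparisons share the 2 control libraries.

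Sst, the D-cell hormone that inhibits acid, had 26.8 and 43.6 CPM with diclofenac, 19.6 and 26.5 with aspirin, 28.9 and 53 with honokiol plus indomethacin, 37.3 and 35 with indomethacin, and 20.7 and 56.8 in control. Aspirin replicate 1 lay below both controls and aspirin replicate 2 between them. The log2 fold change with aspirin was -0.75 ± 0.47 (SE, edgeR adjusted p = 0.28), a fold of 0.595 with a 95% interval of 0.285 to 1.24. It was -0.14 ± 0.47 with diclofenac, -0.10 ± 0.47 with indomethacin and 0.08 ± 0.47 with honokiol plus indomethacin (SE, edgeR adjusted p = 0.88, 0.96 and 0.98). The spread between replicates was widest for this gene: its dispersion corresponded to a coefficient of variation of 32.8%, where the trend for genes of its level gave 19.9%, and the other 5 genes had 21.9% to 24.8%. With no filter on low counts Sst passed with aspirin, at a log2 fold change of -0.72 (edgeR adjusted p = 0.032). Without control replicate 2 the aspirin value was 0.19 and without control replicate 1 it was -1.26.

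**Figure D4:**
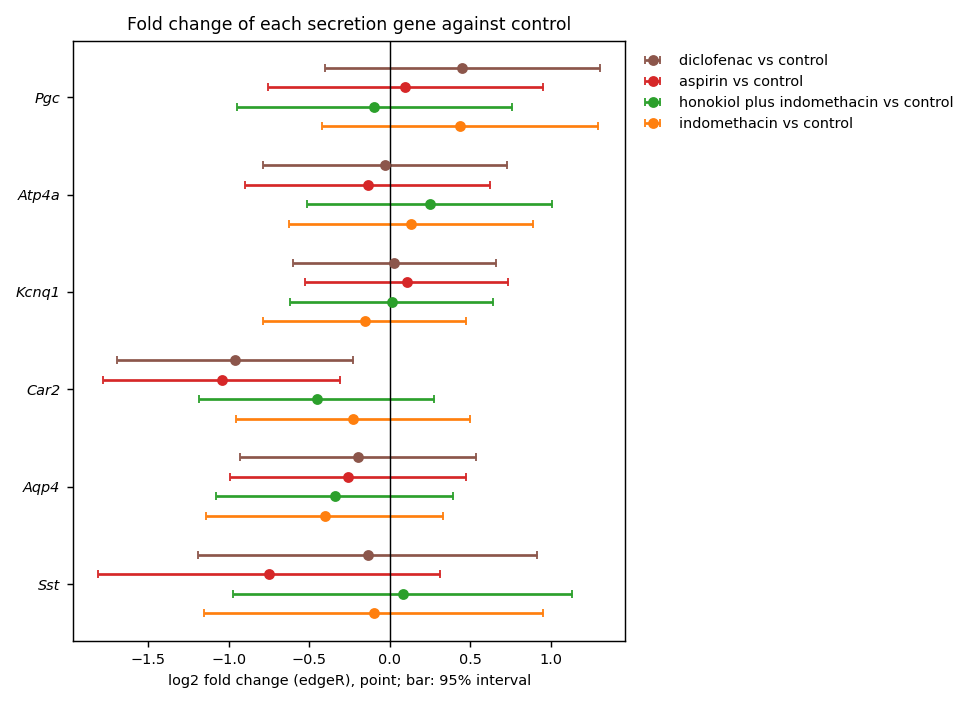
Log2 fold change of each gene against control by edgeR, with its 95% interval, for diclofenac, aspirin, honokiol plus indomethacin and indomethacin from top to bottom within each gene. The intervals of Car2 with diclofenac and aspirin are the 2 that do not reach 0, before adjustment over all genes.

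Honokiol before indomethacin was set against indomethacin alone, as the protocol speaks of protection by honokiol. None of the 6 genes was called, beside 0.343% of all genes, and none had an unadjusted p under 0.05 by edgeR or was called by DESeq2. Of all 16346 genes 1552 had such an edgeR p, and DESeq2 called 235 of 17685. At an unadjusted DESeq2 p under 0.05 stood 1 of the 6, beside 1357 of all genes. For 1 of the 6, Pgc, both honokiol plus indomethacin libraries lay below both indomethacin libraries, beside 45.3% of all genes that lay apart in this comparison. The Pgc difference on the log2 scale was -0.53 ± 0.39 (SE, edgeR adjusted p = 0.75), a fold of 0.691 with a 95% interval of 0.381 to 1.25. The others were 0.12 ± 0.35 for Atp4a, 0.17 ± 0.29 for Kcnq1, -0.23 ± 0.33 for Car2, 0.06 ± 0.33 for Aqp4 and 0.18 ± 0.47 for Sst (SE, edgeR adjusted p of at least 0.899). Both honokiol libraries held Y reads and 1 of 2 indomethacin libraries did.

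Drug against drug, compared as dosed, again called none of the 6 genes. Diclofenac against indomethacin called 0.0184% of all genes, and aspirin against indomethacin 0.0184% as well, while aspirin against diclofenac called 0%, with 852 genes at an unadjusted p under 0.05 and 7 called by DESeq2. DESeq2 called none of the 6 in these comparisons. Of all genes it called 162 of 15391 for diclofenac and 439 of 14933 for aspirin against indomethacin. At an unadjusted edgeR p under 0.05 stood 1 of the 6, Car2, in each comparison with indomethacin and none between aspirin and diclofenac. Of all 16346 genes, 1949 stood there for diclofenac and 3283 for aspirin against indomethacin. For diclofenac the edgeR p was 0.0497. None of the 6 stood there with RLE factors, the harder filter, the replicate block, the Y-read term or mitochondrial features left out. With no filter, only the 2 groups fitted or DESeq2, 1 did, beside 2781, 2478 and 1722 of all genes. For aspirin against indomethacin, 2 of the 6 stood there with no filter, only the 2 groups fitted or the replicate block. In the same order, 4205, 2998 and 2921 of all genes did. With RLE factors, the harder filter, mitochondrial features left out or DESeq2 it was 1 of the 6. With the Y-read term it was 0, beside 1793 of all genes. For Car2 the log2 difference was -0.73 ± 0.33 for diclofenac against indomethacin and -0.81 ± 0.33 for aspirin against indomethacin (SE, edgeR adjusted p = 0.42 and 0.21). Between aspirin and diclofenac it was -0.08 ± 0.33 (SE, edgeR adjusted p = 0.95), a fold of 0.945 with a 95% interval of 0.570 to 1.56. The doses differ, so these values compare the groups and not equal exposures.

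Ratios within a library do not depend on how libraries are scaled to each other. Car2 over Atp4a, as counts per kb, was 0.35 and 0.479 with diclofenac, 0.304 and 0.534 with aspirin, 0.642 and 0.352 with honokiol plus indomethacin, 0.807 and 0.463 with indomethacin, and 1.31 and 0.458 in control. Control replicate 2 thus lay within the range of the treated libraries, and control replicate 1 lay above all others. Kcnq1 over Atp4a was 0.0336 and 0.0375 with diclofenac, 0.0404 and 0.0398 with aspirin, 0.0302 and 0.0277 with honokiol plus indomethacin, 0.0304 and 0.026 with indomethacin, and 0.0304 and 0.036 in control. In this ratio of channel to pump, aspirin replicate 1 was the highest of the 10 libraries and indomethacin replicate 2 the lowest. Pgc over Atp4a, the zymogen to the pump, was 274 and 486 with diclofenac, 267 and 354 with aspirin, 245 and 179 with honokiol plus indomethacin, 413 and 263 with indomethacin, and 285 and 250 in control, as counts per kb. Diclofenac replicate 2 was the highest of the 10 libraries in this ratio and honokiol plus indomethacin replicate 2 the lowest. Over the 10 libraries, Aqp4 over Atp4a ran from 0.0116 to 0.0287 and Sst over Atp4a from 0.0772 to 0.19. No p-value is given for ratios of 2 against 2 libraries.

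**Figure D5:**
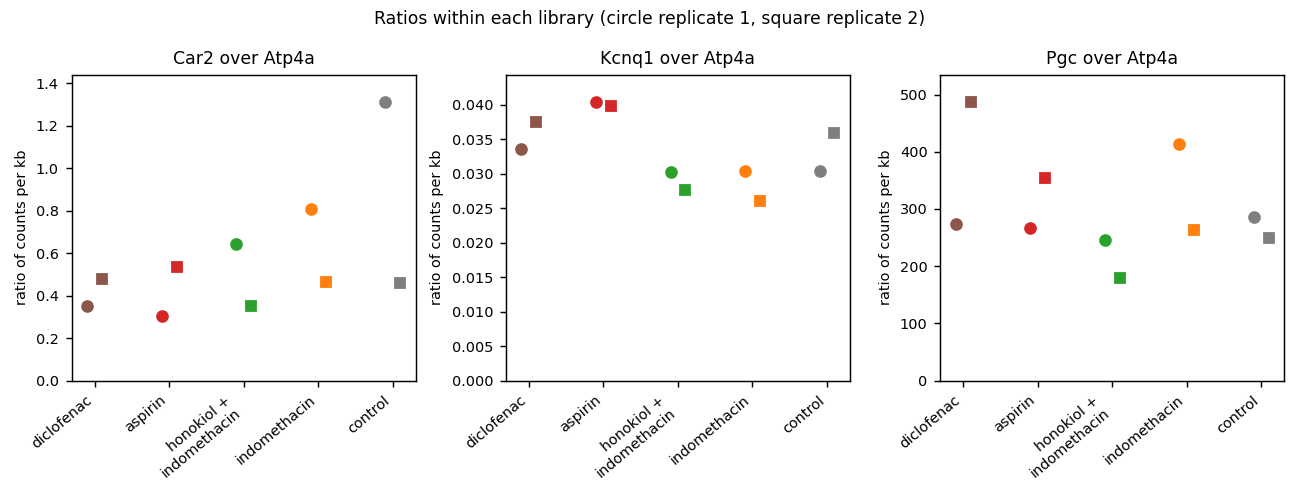
Ratio of counts per kb within each library for Car2, Kcnq1 and Pgc, each over Atp4a, with circles for replicate 1 and squares for replicate 2 and axes from 0. The Car2 point of control replicate 1 at 1.31 stands above the other 9 libraries, which lie between 0.304 and 0.807.

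The genes also varied together, or apart, between the 2 libraries of a group. In 5 of 5 groups the library with more Atp4a also had more Kcnq1 and less Car2 by TMM-scaled CPM. Aqp4 and Sst were higher in the same library in 5 of 5 groups. These were 2 of 15 pairs of genes that went the same way in all groups, and 2 pairs, Car2 with Atp4a and Car2 with Kcnq1, went opposite ways in all. The last 2 pairs are not separate results, as Atp4a and Kcnq1 moved together. How often other pairs of genes do so was not tested. On plain library totals Atp4a and Kcnq1 still went the same way in 5 groups, and Aqp4 and Sst did so in 4. Car2 shared its direction with Atp4a in 1 group and with Kcnq1 in 1. Over the 10 libraries, log2 CPM of Atp4a and Kcnq1 correlated at r = 0.70, of Aqp4 and Sst at r = 0.63, of Kcnq1 and Car2 at r = -0.69, and of Atp4a and Car2 at only r = -0.21, as descriptions across libraries that share groups and depth.

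Among the 11187 genes whose log2 CPM averaged 1 or more, those most like each of the 6 over the 10 libraries were taken by Pearson's r of log2 CPM, and they carry no symbol in the files. Most like Car2 were a 5-exon gene on chromosome 8 at 71786310 to 71798266 (r = 0.99) and a 6-exon gene on chromosome 5 at 135536413 to 135551990 (r = 0.99). Most like Kcnq1 were a 3-exon gene on chromosome 2 at 166140112 to 166218774 and a 23-exon gene on chromosome 16 at 47368768 to 47533816 (r = 0.95 for both). Most like Atp4a were a 14-exon gene on chromosome 8 at 117486083 to 117546370 (r = 0.93) and a 20-exon gene on chromosome 14 at 81367468 to 81426496 (r = 0.92). Most like Pgc were a 20-exon gene on chromosome 9 at 30255459 to 30321323 and an 18-exon gene on chromosome 4 at 15433295 to 15505362 (r = 0.92 for both). Most like Aqp4 were a 22-exon gene on chromosome 2 at 216339154 to 216382260 and a 2-exon gene on chromosome 3 at 146800019 to 146812989 (r = 0.88 for both). Most like Sst were a 12-exon gene on chromosome 3 at 80072489 to 80081047 (r = 0.89) and a 10-exon gene on chromosome 1 at 235387153 to 235405831 (r = 0.88). Kcnq1 stood 155th of 11186 genes in the list for Atp4a, and Atp4a 647th in that for Kcnq1. By descending r, Car2 stood 10628th in the list for Kcnq1, and Kcnq1 9356th in that for Car2. In the list for Pgc the closest of the other 5 was Sst, at 1567th with r = 0.45.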

How the data were processed

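Per the labels' protocols, ribosomal RNA was removed from total RNA with a strand-specific kit before paired-end sequencing. The deposited values are raw counts per gene, whole numbers with a different total in each library and in featureCounts columns per the file headers. The submitters' processing notes name HISAT2 2.1.0 and cutadapt 1.16, with featureCounts, SAMtools 1.19, FastQC 0.11.7, DESeq2 and bcl2fastq. Build, strandedness of counting and handling of multi-mapped reads: not given in the sources used here, so antisense reads cannot be told apart. Empty last lines held no count and were skipped.

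Counts of all 10 libraries entered 1 fit by edgeR 4.0.16 (R 4.3.3) after filterByExpr at its defaults (counts of 10, total of 15). Scaling was by TMM, dispersions were moderated robustly, and the model held the group alone. Standard errors were taken as the log2 fold change over the square root of its F, and 95% intervals use the t distribution with the moderated degrees of freedom. The procedure was tested on simulated data. Log2 CPM for correlations used a prior count of 2. Alternatives were RLE factors, no filter, a harder one (2 libraries with 10 counts and 1 CPM), DESeq2 1.42.0, a replicate block, a term for Y reads (over 1000 counts on Y features with at least 50 in all and 0 in some library), mitochondrial features left out, the 2 groups alone, and each library left out. The genes and lists were chosen with earlier results of these data known. Named genes are the 6, plus the 2 most like each.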

Additional observations from a re-analysis of the deposited data

How the results depend on the processing

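Across 18 other settings and 5 comparisons, 7 of 540 combinations of gene, comparison and setting passed, all of them Car2 or Sst with diclofenac or aspirin against control. No low-count filter gave 1 gene called with diclofenac (Car2) and 2 with aspirin (Car2 and Sst), and DESeq2 gave 1 (Car2) with each. Of all genes, no filter called 2650 and 4198 of 24106 with these drugs, and DESeq2 1792 of 15850 and 3154 of 16309. The other combinations that passed were Car2 with aspirin where a library was left out and its group kept only 1. The log2 fold change was -1.34 without control replicate 2 and -1.43 without aspirin replicate 2. Without a filter 24106 genes entered the fit, and over the settings the count of all genes called ranged from 319 to 2650 with diclofenac (1286 as reported), from 462 to 4198 with aspirin (2903), from 1 to 834 with indomethacin (127), and from 0 to 153 with honokiol plus indomethacin (0). It ranged from 0 to 699 for honokiol plus indomethacin against indomethacin (56), 0 to 872 for diclofenac against indomethacin (3), 1 to 1414 for aspirin against indomethacin (3) and 0 to 140 for aspirin against diclofenac (0).

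Deviations from group means of same-numbered libraries correlated at r = -0.26 to 0.30 over 10 pairs of groups, with 4 above 0.1. Control correlated at 0.13 with indomethacin and 0.30 with honokiol plus indomethacin, and these 2 drug groups at 0.14. Aspirin and diclofenac correlated at 0.22, and each of them had a negative r with every other group. With 2 libraries a group, this cannot settle whether the replicate numbers pair the libraries. A replicate block called 0 of the 6 genes in every comparison, and 935 genes with diclofenac and 2106 with aspirin. Signs of log2 fold changes that passed no test turned under some settings, and the cause was not tested. Atp4a with diclofenac was 0.017 with the block, 0.0056 with no filter and 0.00046 with only 2 groups fitted. Sst with indomethacin was 0.071 with the block and 0.071 with the Y-read term, under which Kcnq1 was -0.22 with diclofenac and -0.15 with aspirin, and Pgc was 0.032 with honokiol plus indomethacin. With no turn of sign, the Y-read term also moved Atp4a (0.62), Kcnq1 (0.41) and Sst (0.54) with honokiol plus indomethacin, and Atp4a with diclofenac (-0.30) and with aspirin (-0.41), by over 1.5 times. The same term moved Sst with diclofenac from -0.14 to -0.35. It brought Pgc with aspirin from 0.10 to 0.0023 and Kcnq1 with indomethacin from -0.15 to -0.080.

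Leaving out control replicate 1 or control replicate 2 gave the ends of the following ranges of log2 fold changes. Atp4a ran from -0.33 to 0.42 with diclofenac, -0.43 to 0.32 with aspirin, -0.18 to 0.57 with indomethacin and -0.069 to 0.68 with honokiol plus indomethacin. Kcnq1 ran from -0.35 to 0.64, -0.27 to 0.72, -0.55 to 0.44 and -0.39 to 0.60 in that order of groups, and Aqp4 from -0.61 to 0.48, -0.67 to 0.43, -0.84 to 0.26 and -0.78 to 0.32. Sst ran from -0.66 to 0.79, -1.26 to 0.19, -0.63 to 0.82 and -0.46 to 0.99. Pgc ran from -0.12 to 0.44 with aspirin and -0.34 to 0.22 with honokiol plus indomethacin, and Car2 from -0.55 to 0.22 with indomethacin. Without a turn of sign, Car2 with honokiol plus indomethacin was -0.010 without control replicate 1 and -0.78 without control replicate 2. Pgc was 0.23 and 0.79 with diclofenac, and 0.20 and 0.76 with indomethacin, in the same order of omitted controls. Leaving out a library of the groups compared also turned honokiol plus indomethacin against indomethacin for Atp4a (-0.14 to 0.40), Aqp4 (-0.23 to 0.41) and Sst (-0.32 to 0.55), and aspirin against diclofenac for Car2 (-0.47 to 0.22). Against control, leaving out a treated library turned signs too. With diclofenac, Kcnq1 was -0.043 and Sst 0.20 without diclofenac replicate 1, and Atp4a was 0.14 without diclofenac replicate 2. With aspirin, Pgc was -0.054 without aspirin replicate 2. With indomethacin, Kcnq1 was 0.019 without indomethacin replicate 1, and Atp4a was -0.16 without indomethacin replicate 2. Where a group kept 1 library, it was assumed to vary like the other groups. The order of the 6 genes by level per kb held in 9 libraries on either scale. Counts of at least 532 make counting error small beside the spread between 2 libraries a group, which limits what could be detected.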
